A study of Homo sapiens with 6 samples.

Results

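On the long arm of chromosome 11, the segment from 65 to 70 Mb (hg19, in band 11q13) held 865 of 248031 regions of accessible chromatin, or 0.349%. Peaks of 6 libraries that shared at least 1 bp were merged into a region, and a region was counted in the segment when its midpoint lay between those limits. The segment was chosen by the solved summit pileup and background of its peaks, which earlier results of these data had shown to be lower in cells without CRAMP1. Each comparison of genotypes inside it is therefore a description with no test behind it, and it supports nothing by itself.

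The cells were U2OS, an established human osteosarcoma line, of genotype WT or CRAMP1-KO, with 3 ATAC-seq libraries per genotype. ATAC-seq finds open chromatin with a transposase that inserts adapters where DNA is not packed away, and the knocked-out gene, CRAMP1, encodes a protein known to promote the expression of linker histone H1. No treatment is given in the labels for either genotype, and both were grown in the same medium. Nothing in the labels tells whether a replicate was its own culture or how many clones the knockout represents, so spread between libraries may be technical.

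At the gene starts that mark bone and connective tissue cells, RUNX2 (its downstream promoter), COL1A1 and SPARC, a peak was listed in 6 of 6 libraries. The start of PTPRC, a blood marker, had a peak in 0 of 6. Of the epithelial markers, EPCAM had a peak in 6 of 6 libraries and CDH1 in 4. Library lists held 132686 to 198875 peaks, the most in WT replicate 1. The total of reads is unknown, and the median summit of a region shared by all libraries held 53 to 97 fragments.

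Band 11q13 is densely packed with housekeeping genes. Its proximal stretch carries the nuclear long noncoding RNAs NEAT1 and MALAT1, the NF-kappaB subunit gene RELA and genes of splicing and chromatin, while the distal stretch carries the cell-cycle gene CCND1 beside a group of fibroblast growth factor genes, a block that is amplified in several kinds of cancer. At a peak, the summit pileup is the number of fragments stacked at its highest point, the local background is the fragment rate in the chromatin around it, and fold enrichment is their ratio. A drop in pileup with an equal drop in background leaves fold enrichment where it was.

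Promoter sequences help to picture these sites. Those of 6 genes follow because they span the range of the values given below: BRMS1, KDM2A and MALAT1 had the largest falls in pileup among gene starts with a sequence in the table used, KMT5B and PPP6R3 the smallest changes among those of these starts that lie inside a shared region, and LRP5 fell without a lower background. Each is the 250 bases upstream of the RefSeq start in GRCh38.p14, read 5′ to 3′ on the strand of the gene, and capitals mark matches to GGGCGG (a GC box) or CCAAT on either strand, run together where they overlap. BRMS1 lies on the minus strand at chr11:66345105-66345354, KDM2A on the plus strand at chr11:67119013-67119262, and MALAT1 on the plus strand at chr11:65497488-65497737. KMT5B lies on the minus strand at chr11:68213649-68213898, PPP6R3 on the plus strand at chr11:68460502-68460751, and LRP5 on the plus strand at chr11:68312341-68312590.
BRMS1: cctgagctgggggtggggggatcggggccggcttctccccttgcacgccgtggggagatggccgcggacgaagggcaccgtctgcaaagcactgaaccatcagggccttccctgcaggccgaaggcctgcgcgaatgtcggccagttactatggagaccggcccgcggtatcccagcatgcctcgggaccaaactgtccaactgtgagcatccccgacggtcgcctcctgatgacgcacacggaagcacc
KDM2A: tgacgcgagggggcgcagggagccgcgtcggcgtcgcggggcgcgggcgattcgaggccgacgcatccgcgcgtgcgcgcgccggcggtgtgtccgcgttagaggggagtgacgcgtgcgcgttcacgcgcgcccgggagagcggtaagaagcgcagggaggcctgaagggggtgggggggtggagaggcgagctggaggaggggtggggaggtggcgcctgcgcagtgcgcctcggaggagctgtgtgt
MALAT1: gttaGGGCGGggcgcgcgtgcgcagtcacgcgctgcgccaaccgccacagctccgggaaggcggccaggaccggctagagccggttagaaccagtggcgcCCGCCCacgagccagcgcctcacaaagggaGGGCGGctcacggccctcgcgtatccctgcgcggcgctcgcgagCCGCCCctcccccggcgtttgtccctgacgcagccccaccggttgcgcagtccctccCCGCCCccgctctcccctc
KMT5B: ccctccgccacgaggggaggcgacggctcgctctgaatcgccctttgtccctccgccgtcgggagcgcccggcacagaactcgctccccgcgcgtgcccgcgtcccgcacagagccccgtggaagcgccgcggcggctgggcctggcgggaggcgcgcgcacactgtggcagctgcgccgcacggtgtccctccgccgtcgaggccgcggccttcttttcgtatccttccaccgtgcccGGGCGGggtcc
PPP6R3: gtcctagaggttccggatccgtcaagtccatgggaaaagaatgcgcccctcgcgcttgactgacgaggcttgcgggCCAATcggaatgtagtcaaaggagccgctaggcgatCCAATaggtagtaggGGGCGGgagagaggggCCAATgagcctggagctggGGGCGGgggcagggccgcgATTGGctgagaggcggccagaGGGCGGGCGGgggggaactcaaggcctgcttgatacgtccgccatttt
LRP5: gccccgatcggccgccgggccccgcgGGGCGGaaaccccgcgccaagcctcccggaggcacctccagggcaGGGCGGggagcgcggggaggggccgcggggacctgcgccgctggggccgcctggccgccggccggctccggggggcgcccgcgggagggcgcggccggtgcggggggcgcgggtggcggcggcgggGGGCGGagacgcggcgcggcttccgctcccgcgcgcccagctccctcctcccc

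These promoters were rich in G and C, from 63.6% in PPP6R3 to 87.2% in LRP5. KDM2A and KMT5B, with log2 changes in pileup of -0.74 and -0.01, had 75.2% and 75.6% GC and 40 and 39 CpG dinucleotides, so base composition did not set these 2 apart. Of 43 gene starts used, 31 had a promoter in the table. Their median GC was 67.6%, against 58.0% over 35116 promoters of the same length. On either strand, GGGCGG was found in 20 of the 31 (64.5%, against 42.6% of all promoters), CCAAT in 10 (32.3% against 32.0%) and GGAAGT, an ETS core, in 8 (25.8% against 19.5%). The AP-1 consensus TGANTCA and the E-box CACGTG were found in 1 each (3.23%, against 6.57% and 6.34%), and TATAAA in 0 (10.7% of all). A match to letters is a description of the sequence, not a binding site.

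Density and width of peaks in the segment were compared with its flanks within each library, without regard to genotype. Peaks stood densely, at 149.4, 126.6 and 112.0 per Mb in WT replicates 1, 2 and 3 and 102.4, 106.0 and 119.8 per Mb in CRAMP1-KO replicates 1, 2 and 3. Set against the flanks from 60 to 65 and 70 to 80 Mb joined, the density was 1.42-fold higher, a log2 difference of 0.50 ± 0.0315 (SD, n = 6; exact sign-flip permutation test, two-sided, p = 0.03125, the smallest possible; adjusted p = 0.046875 over 3 tests) that was positive in 6 of 6 libraries. It came from the distal flank, with 58.6 to 87.5 peaks per Mb, since the proximal flank had 98.2 to 152.2. Peaks of the segment were also wider than those of the joined flanks, by 1.13-fold (log2 difference 0.18 ± 0.0474, SD, n = 6; exact sign-flip permutation p = 0.03125, adjusted p = 0.046875; 6 of 6 libraries). Library medians were 486 to 597.5 bp in the segment, 433 to 566 bp in the proximal flank and 384 to 519.5 bp in the distal flank. In CRAMP1-KO replicate 3 the segment and the proximal flank were equal, at 566 bp. Width against the proximal flank alone was not tested. Median fold enrichment did not pass the same test (log2 difference -0.05 ± 0.0737, SD, n = 6; exact permutation p = 0.21875), being higher in 1 of 6 libraries, but it passed as lower, at -0.12, once peaks were limited to a −log10 q of 5 or more. The joined flanks hide opposite directions. On the full lists, the segment's median lay above that of the proximal flank and below that of the distal flank in every library. In WT replicate 1 it was 4.41, against 3.76 and 4.55, and in CRAMP1-KO replicate 1 it was 5.78, against 5.58 and 6.68.

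Of the 865 regions, 404 (46.7%) had a peak in all 6 libraries, against 37.3% of all regions, and only these have a pileup in every library. A further 44, 62, 60 and 66 had a peak in 5, 4, 3 and 2 libraries. Another 229 were seen in a single library, 111 of them in WT replicate 1, the longest list.

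Across the 404 shared regions, pileup was lower in the knockout and so was the background under it. To remove depth, each pileup was divided by the median of its library over all 92505 shared regions. The median region of the segment stood at 1.57, 1.64 and 1.66 in the WT libraries and at 1.29, 1.35 and 1.31 in the CRAMP1-KO libraries, so sites here were taller than the median site in both genotypes. The genotypes did not overlap, and the means of 1.62 ± 0.0499 and 1.32 ± 0.0263 (SD, n = 3) differed by -0.30 on the log2 scale. Relative background stood at 1.72, 1.87 and 1.91 for WT and at 1.46, 1.53 and 1.53 for CRAMP1-KO, again without overlap and with a log2 difference of -0.28. Fold enrichment differed by -0.07, and its libraries overlapped. In bulk libraries, fewer cells with an open site and less cutting per cell cannot be told apart, and neither pileup nor background is corrected for the number of DNA copies of a place.

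Region by region, 350 of the 404 had a lower mean in CRAMP1-KO, with a median log2 change of -0.38, the 10th and 90th percentiles at -0.66 and 0.06, and a full range from -1.69 to 0.60. Over all shared regions 58.7% were lower and the median was -0.07. In a limma fit over all 92505 regions, 223 members (55.2%) passed as lower at an adjusted p under 0.05, where the background share is 15.5%, and 4 passed as higher, where it is 9.36%. Libraries of the genotypes lay apart in 238 members as lower (58.9%, background 23.7%) and in 4 as higher (background 14.4%). The flank from 60 to 65 Mb had much the same values, with 183 of 364 (50.3%) passing as lower, 86.5% with a lower mean and a median of -0.32. These counts come from the contrast that chose the segment, and nothing is read from them. They also rest on the scaling. As an alternative, pileups were divided by a depth index, the lowest background of a library over the width of its narrowest peak. That narrowest peak measured 135 to 163 bp for WT and 158 to 168 bp for CRAMP1-KO. The index thus hangs on a single peak width per library as well as on the background. It moved the median of all regions up by 0.16, and how much of this came from the widths was not tested. It also placed libraries of the same genotype differently. WT replicates 1 and 2 had indices of 0.0380 and 0.0237, where their median pileups over all shared regions were 97 and 87. How much this spread within a genotype took from the calls was not tested either. By this index only 1 member passed as lower (0.248%, where 0.495% of all regions did) and 0 as higher (3.08% of all). The segment then stood at -0.14.

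**Figure D1:**
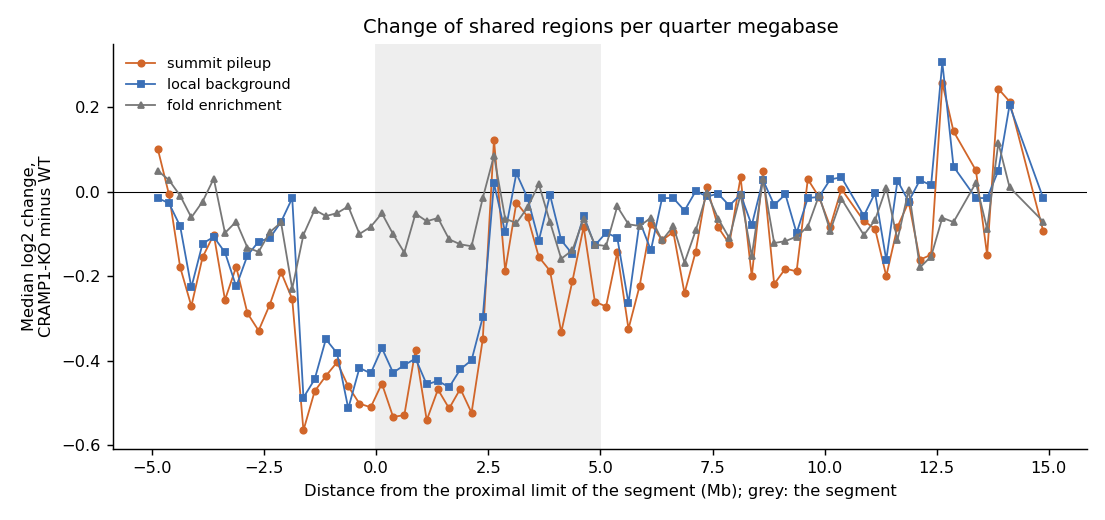
Median log2 change (CRAMP1-KO minus WT) of summit pileup, local background and fold enrichment of shared regions in steps of 0.25 Mb that hold at least 4 of them, against the distance from the proximal limit of the segment, which is shaded grey. Pileup and background run together at a lower level from 1.75 Mb before the limit to 2.5 Mb inside it, while fold enrichment stays closer to 0.

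The lower values were not spread evenly from 65 to 70 Mb, and they did not begin at 65 Mb. In steps of 0.25 Mb, the median change was -0.25 just before 63.25 Mb and -0.57 just after it, with 4 and 14 shared regions in these steps. It stayed between -0.57 and -0.35 up to 67.5 Mb, and in the next step, with 10 shared regions, it was 0.12. The background moved at the same places, from -0.02 to -0.49 across 63.25 Mb and from -0.30 to 0.02 across 67.5 Mb. All 4 regions of the step before 63.25 Mb had their background at the lowest value of at least 1 library, where no fall can register, so the -0.02 is not informative. The steps that start at 62.5 and 62.75 Mb, with 22 and 6 regions of which 0 and 1 were at that floor, stood at -0.11 and -0.07. After 67.5 Mb 3 of 10 regions were at the floor. Fold enrichment moved less at 67.5 Mb, from -0.02 to 0.09. The 2 positions are those where the median background drops and rises most between neighbouring steps from 60 to 70 Mb, a rule set after the profile was seen, so the stretches they bound are descriptive.

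The proximal stretch of the segment, from 65 to 67.5 Mb, held 254 shared regions with relative pileups of 2.27, 2.35 and 2.46 in WT against 1.66, 1.75 and 1.74 in CRAMP1-KO (medians per library). Its background medians were 2.42, 2.66 and 2.71 in WT against 1.93, 1.98 and 2.03 in CRAMP1-KO. WT and CRAMP1-KO were apart in both measures, and 247 of the 254 regions had a lower background. The median region changed by -0.50 in pileup, -0.41 in background and -0.09 in fold enrichment, and 183 (72.0%) passed as lower and 0 as higher.

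From 67.5 to 70 Mb the 150 shared regions were near the height of the median site, at 0.98, 1.03 and 1.07 in WT against 0.90, 0.93 and 0.93 in CRAMP1-KO. The genotypes still lay apart, but the median region changed by only -0.18 in pileup and -0.07 in background, and 40 (26.7%) passed as lower and 4 as higher. All 4 regions of the segment that passed as higher lay in this stretch. Fold enrichment changed by -0.09, as in the proximal stretch. Where the background is at the lowest value a library can have, it cannot register a fall. That was so in at least 1 library for 18 of these 150 regions (12.0%), for 9 of the 254 proximal ones (3.54%) and for 24.4% of all shared regions.

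**Figure D2:**
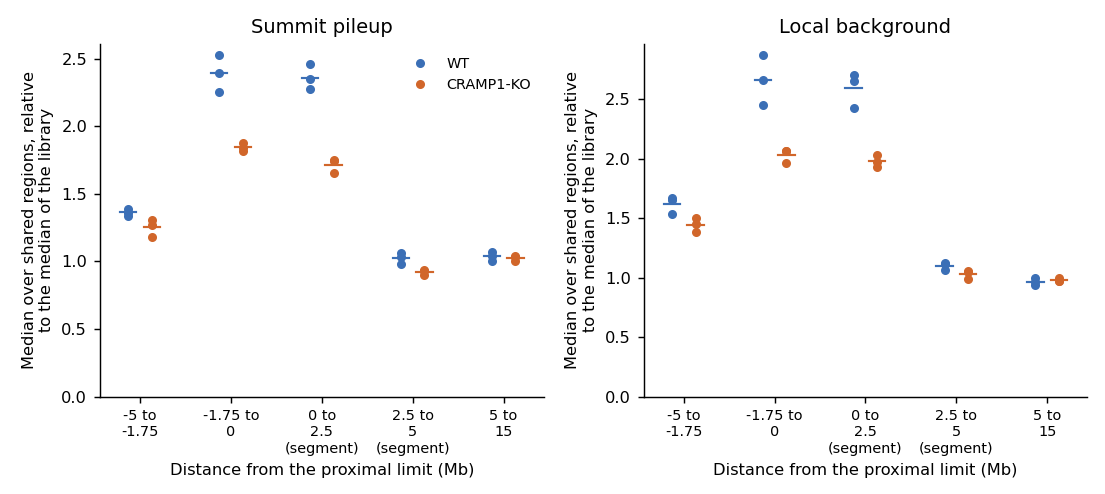
Median relative summit pileup (left) and relative local background (right) of shared regions in 5 consecutive stretches, given by their distance from the proximal limit of the segment. Points are libraries (3 per genotype) and bars are means. WT lies above CRAMP1-KO in the first 4 stretches, most widely from 1.75 Mb before to 2.5 Mb after the limit, and the genotypes overlap in the last stretch.

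Outside the segment, the stretch from 63.25 to 65 Mb had values close to those of its proximal stretch. Its 149 shared regions had a median change of -0.47 in pileup and -0.42 in background, and 105 passed as lower. Farther out, from 60 to 63.25 Mb, the 215 shared regions were at -0.23 and -0.12, with 78 (36.3%) as lower, which is below the values of the segment's own distal stretch. The flank from 70 to 80 Mb was at -0.08 and -0.02, with 68 of 427 (15.9%) as lower. The limit at 65 Mb thus falls within a longer stretch of lower values, and the label of a loss over 65 to 70 Mb fits the values up to 67.5 Mb better than those beyond. Of the regions next to the limits, the last before 65 Mb (chr11:64992308-64993300) changed by -0.01 and the first shared one after it (chr11:65017863-65018261) by -0.11. The last inside 70 Mb (chr11:69996123-69996575) changed by -0.19, and the first shared one outside (chr11:70005312-70006828) by -0.59.

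Among 535 windows of 5 Mb with at least 50 shared regions, the segment ranked 8th from the lowest in median pileup change, where the median window stood at -0.04. It ranked 3rd by background change and 11th from the highest by level of pileup. The 7 windows with a lower pileup were 2 on the short arm of chromosome 11 and 5 on chromosome 13.

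The starts of named genes were read next, by role. They were written by hand for hg19, checked by their offset to RefSeq and taken with 2 kb on either side. Of 45 genes, 43 passed the check and 41 had a shared region, of which 37 covered the start. At NPAS4, RHOD, FGF3 and CPT1A the region lay 173, 512, 594 and 1823 bp away from the start. Of these 41, 33 (80.5%) passed as lower, 0 as higher and 8 did not pass. As lower, 52.3% of the shared regions elsewhere in the segment passed, and 15.5% of all shared regions. The counts by role given below stand beside the same shares, and no difference between roles was tested. By the depth index 0 of 41 passed, although 38 still had a lower mean, so every call named in the next paragraphs holds for the scaling to the library median only. Their median log2 change was -0.53, against -0.37 for the 363 shared regions elsewhere in the segment, and their sites were also taller, at a median relative pileup of 2.81 against 1.27. Between 65 and 67.5 Mb 26 of 27 passed as lower, and from 67.5 Mb on 7 of 14 did.

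**Figure D3:**
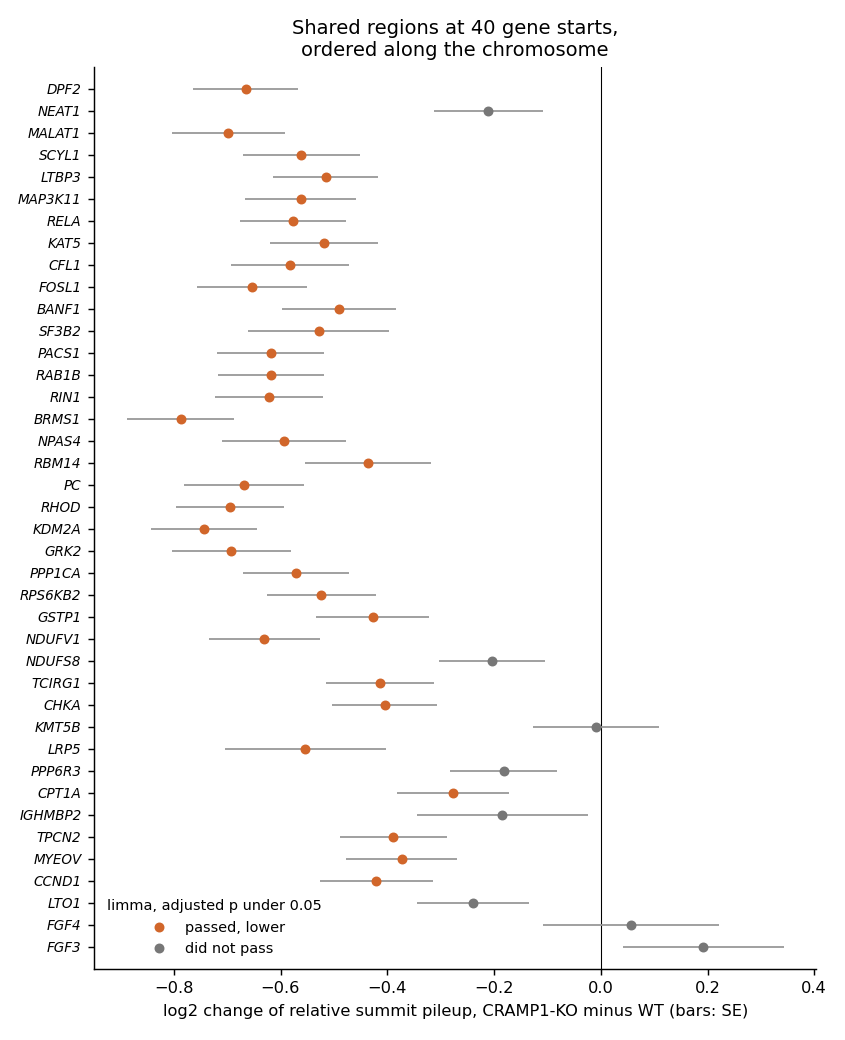
Log2 change of relative summit pileup (CRAMP1-KO minus WT; bars are the SE of the limma fit) at 40 of the gene starts in their order along the chromosome, proximal at the top. The 32 plotted starts that passed as lower are orange and the 8 that did not pass are grey; 25 of the upper 26, from DPF2 to NDUFV1, are orange, and the lower 14, from NDUFS8 to FGF3, are mixed.

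Of the neighbouring noncoding RNA genes, MALAT1 passed as lower and NEAT1 did not, although both had a lower mean in CRAMP1-KO. At MALAT1, which makes an abundant RNA of nuclear speckles, relative pileup was 5.16, 5.84 and 5.47 in WT against 2.90, 3.71 and 3.59 in CRAMP1-KO (chr11:65264551-65266075, log2 change -0.70, SE 0.11). All CRAMP1-KO libraries were below all WT libraries. At NEAT1, whose RNA builds paraspeckles, WT stood at 3.45, 3.69 and 3.55 and CRAMP1-KO at 3.56, 3.10 and 2.65 (chr11:65189538-65191492, -0.21, SE 0.10), with overlap and no call, although it passed as lower without CRAMP1-KO replicate 1. Fold enrichment was 8.80 to 9.39 in WT and 6.16 to 8.05 in CRAMP1-KO at MALAT1, and 2.60 to 2.96 and 2.61 to 2.88 at NEAT1, a tall site on a high background. Whether the 2 starts differ from each other in their change was not tested.

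Of the 10 chromatin and transcription genes, 9 passed as lower. BRMS1, a component of Sin3 deacetylase complexes, had 3.01, 2.74 and 2.92 in WT against 1.64, 1.52 and 1.89 in CRAMP1-KO (chr11:66112204-66112927, -0.79, SE 0.10), without overlap. KDM2A, a histone H3 lysine demethylase that binds CpG islands, had 3.64, 3.59 and 4.11 against 2.26, 2.47 and 2.05 (chr11:66886035-66887721, -0.74, SE 0.10), also apart. In both genes background and fold enrichment took similar parts, with log2 changes of -0.39 and -0.40 at BRMS1 and -0.41 and -0.34 at KDM2A. RELA differed in this respect. Its pileup was 4.11, 4.48 and 4.64 in WT against 2.95, 3.03 and 2.89 in CRAMP1-KO (chr11:65429791-65431395, -0.58, SE 0.10), with the background at -0.51 and fold enrichment at -0.07.

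FOSL1, which encodes the AP-1 subunit Fra-1, changed by -0.65, DPF2, a subunit of BAF remodelling complexes, by -0.67, and the acetyltransferase gene KAT5 by -0.52. BANF1, whose protein ties DNA to the nuclear lamina, the splicing factor gene SF3B2 and RBM14, a paraspeckle protein gene, were at -0.49, -0.53 and -0.44. RBM14 lost its call without WT replicate 2 or CRAMP1-KO replicate 3. KMT5B was the 1 gene of this list that did not pass. This histone H4 lysine methyltransferase gene, distal to 67.5 Mb, had 1.19, 1.31 and 1.40 in WT against 1.28, 1.47 and 1.14 in CRAMP1-KO (chr11:67980058-67982438, -0.01, SE 0.12), and the genotypes overlapped.

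Genes of the cell surface, cytoskeleton and signalling passed as lower at 13 of 14 starts. GRK2, a kinase of G protein-coupled receptors, had 2.09, 1.98 and 1.75 in WT against 1.02, 1.32 and 1.28 in CRAMP1-KO (chr11:67033532-67034654, -0.69, SE 0.11), without overlap. The small GTPase genes RHOD and RAB1B changed by -0.69 and -0.62, and the actin-severing cofilin gene CFL1 by -0.58. PPP6R3, a regulatory subunit of protein phosphatase 6 that lies distal to 67.5 Mb, did not pass, although its libraries were apart at 3.78, 4.25 and 4.04 in WT against 3.52, 3.53 and 3.57 in CRAMP1-KO (-0.18, SE 0.10).

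LRP5, a Wnt co-receptor with known roles in bone mass, lay in the distal stretch and passed as lower. Its relative pileup was 1.02, 0.80 and 1.04 in WT against 0.59, 0.65 and 0.71 in CRAMP1-KO (chr11:68079652-68081589, -0.55, SE 0.15). All CRAMP1-KO libraries lay below all WT libraries. Here the background changed by 0.01 and fold enrichment by -0.54, from 6.11, 5.02 and 5.79 in WT to 3.56, 4.04 and 3.90 in CRAMP1-KO. The difference at LRP5 was therefore in the peak over its surroundings, where at RELA it was in both alike.

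Metabolic genes passed as lower at 6 of 7 starts. PC, the pyruvate carboxylase that feeds the citric acid cycle, had 6.46, 7.56 and 7.98 in WT against 4.66, 4.89 and 4.27 in CRAMP1-KO (chr11:66725244-66726431, -0.67, SE 0.11), the tallest metabolic start in both genotypes and without overlap between them. The respiratory complex I gene NDUFV1 changed by -0.63 and its partner NDUFS8, on the other side of 67.5 Mb, by -0.20 without passing, except when WT replicate 1 was left out. The glutathione transferase gene GSTP1, the proton pump gene TCIRG1 and the choline kinase gene CHKA were at -0.43, -0.41 and -0.41. CPT1A, the carnitine palmitoyltransferase of fatty acid oxidation, passed at -0.28, a call that was lost without any 1 of 5 libraries (each WT library and CRAMP1-KO replicates 1 and 2).

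Among neural or tissue-restricted genes, the activity-dependent transcription factor gene NPAS4 changed by -0.59 and the lysosomal channel gene TPCN2 by -0.39, both passing as lower. The helicase gene IGHMBP2, at -0.18, did not pass. GAL, which encodes the neuropeptide galanin, had no shared region: the WT libraries listed 4, 2 and 1 peaks in its window and the CRAMP1-KO libraries 0, 0 and 2.

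In the block near CCND1, 2 of 5 starts passed as lower and the fibroblast growth factor genes did not pass. CCND1, which encodes cyclin D1, had 1.99, 2.2 and 2.28 in WT against 1.79, 1.35 and 1.72 in CRAMP1-KO (chr11:69455529-69456369, -0.42, SE 0.11). Each CRAMP1-KO library was below each WT library, with the background at -0.03 and fold enrichment at -0.37. MYEOV, a gene amplified with CCND1 in some tumours, was at -0.37 with the background at -0.02, a call lost without WT replicate 3. Its other neighbour LTO1 was at -0.24 and did not pass.

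FGF4 stood at 0.60, 0.68 and 0.57 in WT against 0.61, 0.63 and 0.68 in CRAMP1-KO (chr11:69589307-69591288, 0.06, SE 0.17). FGF3 stood at 0.74, 0.69 and 0.77 against 0.95, 0.71 and 0.88 (0.19, SE 0.15). Both genes were low and their libraries overlapped. FGF19 had 0, 1 and 0 peaks in its window among the WT libraries and 1 in each CRAMP1-KO library. Over the 14 starts distal to 67.5 Mb, the median change was -0.26 in pileup, -0.05 in background and -0.16 in fold enrichment, against -0.59, -0.43 and -0.17 over the 27 proximal starts.

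Taller sites of the segment differed more between genotypes. Sorted by mean relative pileup over the 6 libraries, which includes both genotypes, the 62 regions under 0.5 had a median change of -0.29, the 97 from 0.5 to 1 of -0.21 and the 82 from 1 to 2 of -0.32. The 111 from 2 to 4 were at -0.47 and the 52 at 4 or more at -0.55, of which 48 (92.3%) passed as lower. Of all shared regions at 4 or more, 20.2% passed as lower. In the flank from 60 to 65 Mb 88.1% of that class did, at a median of -0.44. All shared regions showed a smaller slope, from -0.03 and 0.02 in the lowest classes to -0.17 in the highest. Sites of the segment whose peaks covered 1000 bp or more on average, 128 in number, were at -0.49, those of 500 to 1000 bp at -0.37 and the 106 narrower ones at -0.29. All shared regions in these width classes were at -0.16, -0.06 and 0.004, so wider sites were also lower over the whole set. Tall sites were also mostly in the proximal stretch, and height and position were not separated here.

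**Figure D4:**
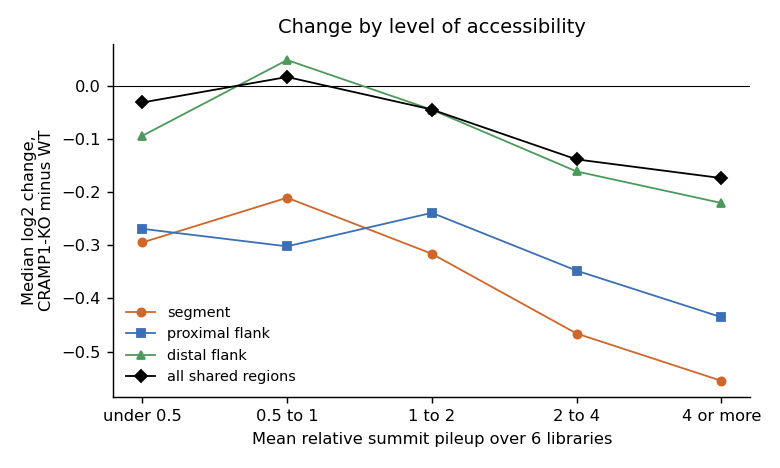
Median log2 change of relative summit pileup (CRAMP1-KO minus WT) of shared regions in 5 classes of mean relative pileup, for the segment, its proximal flank (60 to 65 Mb), its distal flank (70 to 80 Mb) and all shared regions. The segment runs from -0.29 in the lowest class to -0.55 in the highest, and all shared regions from -0.03 to -0.17.

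The 5 tallest sites passed as lower, each with its genotypes apart. The tallest, chr11:65149212-65150684, had relative pileups of 9.51, 12.8 and 11.9 in WT against 7.98, 9.40 and 6.86 in CRAMP1-KO (-0.50, SE 0.14), and its fold enrichment changed by -0.01. The start of SF3B2, at chr11:65819124-65820223, had 8.71, 10.8 and 11.8 against 6.92, 8.27 and 6.48. The others were chr11:65682477-65684048, chr11:66056027-66057473 and chr11:67007002-67008828, with changes of -0.40, -0.57 and -0.54 in pileup and of 0.00, -0.04 and -0.12 in fold enrichment, where SF3B2 had -0.05.

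The region with the largest drop was not at a named start. At chr11:66845105-66846433 relative pileup was 1.66, 1.82 and 1.74 in WT against 0.54, 0.47 and 0.61 in CRAMP1-KO (-1.69, SE 0.13). Its fold enrichment went from 8.36, 8.96 and 8.22 to 4.43, 3.88 and 5.31, and its peaks, 983, 1099 and 1276 bp wide in WT, were 698, 851 and 792 bp wide in CRAMP1-KO. The site was shorter, narrower and less enriched in every CRAMP1-KO library. Next came chr11:65843989-65844936 at -0.96 (SE 0.20), chr11:67028770-67029410 at -0.95 (SE 0.16), chr11:66735197-66735696 at -0.90 (SE 0.12) and chr11:66340985-66342320 at -0.87 (SE 0.17). All 5 passed as lower, and all lay proximal to 67.5 Mb.

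Only 4 shared regions had all knockout values above all WT values, each of them from 67.5 to 70 Mb. The first, chr11:67615195-67615622, had 0.35, 0.41 and 0.30 in WT against 0.53, 0.53 and 0.54 in CRAMP1-KO (0.60, SE 0.19), and its background changed by -0.02. Then followed chr11:68070081-68070488 at 0.46 (SE 0.17), chr11:68309078-68310406 at 0.44 (SE 0.20) and chr11:68150840-68152193 at 0.41 (SE 0.15). All 4 had a mean relative pileup under 1, and the third did not pass the limma test.

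Few regions were present in only 1 genotype. A peak in all 3 WT libraries and no CRAMP1-KO library marked 14 regions (1.62% of the 865, background 1.14%), and the reverse marked 3 (0.347%, background 0.767%). The strongest WT-only site, chr11:65604257-65604439, had summit pileups of 58, 51 and 45, fold enrichments of 6.74, 8.03 and 9.67 and peaks of 149, 181 and 168 bp. It was narrow, close to the lowest peak widths of 135 to 168 bp over the libraries. The next WT-only sites, chr11:66751475-66751791, chr11:69017095-69017830, chr11:69413001-69413359 and chr11:66510773-66511197, had a median −log10 q of 12.2, 11.2, 9.26 and 8.43, where the first had 29.7.

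The 3 CRAMP1-KO-only sites were chr11:67999665-68000077 with summit pileups of 15, 22 and 25, chr11:68313972-68314270 with 19, 14 and 20, and chr11:66832371-66832665 with 31, 32 and 33. Their median −log10 q was 10.6, 6.24 and 4.88. The middle site of the 3 is thus at 6.24, against a median of 5.03 over the 14 WT-only sites, and the median pileups were 22 and 24.5. Without CRAMP1-KO replicate 3 the WT-only sites numbered 37 (4.28%, where all regions had 2.38%). Without WT replicate 2 they numbered 25 (2.89%, all regions 2.35%), and without WT replicate 3 they numbered 29 (3.35%, all regions 3.51%), so the share was then no higher than over all regions. CRAMP1-KO-only sites numbered 9 without WT replicate 1 (1.04%, all regions 1.82%), 6 without WT replicate 2 (0.694%, all regions 1.13%) and 10 without CRAMP1-KO replicate 2 (1.16%, all regions 1.54%).

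The share of peaks in the segment was lower too, but not beyond the spread between libraries. The WT lists had 747, 633 and 560 peaks in the segment and the CRAMP1-KO lists 512, 530 and 599, or 0.376%, 0.417% and 0.422% and 0.383%, 0.381% and 0.379% of each list. The shares overlapped, with means of 0.405% ± 0.0256 and 0.381% ± 0.00184 (SD, n = 3) and a log2 difference of -0.09. That is less than the -0.30 of pileup scaled to the library median, but in lists of equal length the difference in share was -0.14, the same as that of pileup by the depth index. On the deposited lists, the proximal flank had -0.13 and the distal flank -0.05. Of the covered bases the segment took 0.523% ± 0.0209 in WT libraries, against 0.483% ± 0.00247 in CRAMP1-KO libraries (SD, n = 3), without overlap (log2 difference -0.11). By this measure the proximal flank differed by -0.13, also without overlap, and the distal flank by -0.05, with overlap. In a limma fit of peak shares over 2828 bins of 1 Mb, 0 of the 5 bins of the segment passed as lower (background 6.75%) or as higher (background 18.1%), and 0 had an unadjusted p under 0.05. Their log2 differences were -0.13, -0.07, -0.07, -0.06 and -0.07 from 65 Mb on. Without WT replicate 1 the bin at 65 Mb passed as lower.

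Sites shared by all libraries were narrower in the knockout relative to the library median. Listed peaks of the segment, without this scaling, were wider in CRAMP1-KO, at a mean library median of 574 bp against 515 bp in WT. Over all peaks these means were 450 and 385 bp, and the genotypes were apart in both. Relative to the median of each library over all shared regions, the covered width of the segment's regions differed by -0.15 on the log2 scale with the genotypes apart. The proximal flank had -0.06 and the distal flank -0.03, and the genotypes were apart in both flanks too. In the segment, covered width was lower without overlap in 75 of the 404 (18.6%, background 11.3%) and higher in 10 (2.48%, background 7.54%). The proximal flank was close to this, with 15.9% lower and 2.75% higher, and the distal flank had 10.8% and 6.09%. More than 1 peak was listed in 6.35% ± 1.49 of the segment's shared regions in WT libraries and in 3.63% ± 0.623 in CRAMP1-KO libraries (SD, n = 3), without overlap. Over all shared regions the means were 4.64% and 2.41%, also without overlap, so this difference was not particular to the segment. By region, 2 of the 404 were split into several peaks in all WT libraries and joined in all CRAMP1-KO libraries (background 0.373%), and 0 the reverse (background 0.0119%).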

How the data were processed

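ATAC-seq peak lists of 3 WT and 3 CRAMP1-KO U2OS libraries were used. Per the submitters' processing notes, bcl2fastq 2.20.0, cutadapt 3.4, BWA 0.7.17-r1188, MACS3 and the hg19 build were used. For the MACS3 version and settings, the handling of duplicates and any read shift, the status is: not given in the sources used here. Per the labels' protocols, a library came from 50000 cells, was tagmented for 30 minutes and amplified for 7 PCR cycles. The authors deposited 1 list per library, not pooled. The deposited score is 10 times −log10 q, truncated, in 99.9% of the peaks of each list. The deposited fold enrichment is a ratio of summit pileup to local background within a library. Deposited as well are −log10 p and −log10 q, which rate a summit against that background. The lists hold no read counts, so no counting interval is given.

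Pileup and background were solved from fold enrichment and −log10 p, assuming a Poisson tail and 1 added to each. At least 99.99% of peaks per library gave a whole pileup within 1e-05, and the solver was tested on simulated data. Chromosomes 1 to 22 and X were used. Where a region held several peaks of a library, the highest was taken. Relative values were divided by the median of the library over all shared regions. limma 3.58.1 in R 4.3.3 (trend on, two-sided, Benjamini-Hochberg, threshold 0.05) was fitted to log2 relative pileup of all shared regions and to log2 shares of peaks per 1-Mb bin (pseudocount 0.5, mean of at least 5 peaks). The segment was set against its flanks with exact sign-flip permutation over 6 libraries. Everything else was done with numpy 2.4.6, scipy 1.17.1, pandas 2.3.3 and matplotlib 3.10.9 under Python 3.11.15.

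The members, the gene list by role, the tests and the alternatives were chosen with earlier results of these data known. Named regions were the 5 tallest shared regions, the 5 with the largest change in each direction among those whose genotypes did not overlap (4 existed as higher), and the 5 strongest sites of 1 genotype. Gene starts were written by hand for hg19 and kept where their offset to RefSeq (GRCh38.p14) was within 3 kb of that of their neighbours; the largest deviation was 2.306 kb, and 2 genes were left out. The values of 1 gene start, counted but not named, are not reported here. As alternatives, covered bases, lists of equal length, stricter limits on q, other overlap rules, scalings, segment limits and pseudocounts, no minimum of peaks and a replicate block were tried, and every library was left out once. No hg19 sequence or annotation was used here.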

Additional observations from a re-analysis of the deposited data

How the results depend on the processing

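The peak share of the segment kept its direction under 14 alternatives, at -0.15 to -0.06 on the log2 scale. The pileup of shared regions, -0.30, was -0.23 relative to the flanks, -0.14 by the depth index and -0.36 at a −log10 q of at least 10. The background, -0.28, was -0.15, -0.13 and -0.38 in the same order and -0.36 where 1 peak had to cover 50% of the region. With the limits set to 64 to 68 Mb or 68 to 70 Mb, both chosen after seeing the data, pileup was -0.45 or -0.20 and background -0.39 or -0.11. Leaving out each library gave -0.33 to -0.27 for pileup and -0.33 to -0.23 for background. WT-only sites, 14, numbered 6 at a −log10 q of at least 10, 8 in lists of equal length and 17 to 37 without a library; CRAMP1-KO-only sites, 3, numbered 0 and 1 at limits of 5 and 10 and 3 to 10 without a library. Bins passing numbered 1 at a limit of 5 (69 Mb), 1 scaled to the median bin (65 Mb) and 0 to 1 without a library. Over all bins, 191 lower and 513 higher became 384 and 359 scaled to the median bin, 76 and 248 in lists of equal length, and 90 and 521 without a mean-variance trend, which was added after seeing the data. Regions passing, 227, numbered 1 by the depth index, with 309 of 404 still lower, and 186 to 218 without a library. By the depth index 0 of the 33 gene starts passed, with 38 of 41 still lower. With 5 libraries, p cannot go below 0.0625, so density (0.50 to 0.51) and width (0.17 to 0.19) could not pass, and fold enrichment against the flanks was -0.08 to -0.04. It passed at -0.12 and -0.19 for limits of 5 and 10 and at -0.11 in lists of equal length, against -0.05. The cause of these shifts was not tested.

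Equal replicate numbers do not pair the samples: correlations of their deviations were -0.0263, -0.0698 and -0.0275. With the replicate number as a block, 227 regions again passed, of which 223 were among the 227 without it, with 4 lost and 4 gained. The gene starts kept their 33 calls, 0 bins passed and the share changed by -0.09.

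Depth is known only as a relative index, and weak sites listed in a single library, most often WT replicate 1, limit the counts of sites of 1 genotype. The stretches bounded at 63.25 and 67.5 Mb were set from the values they describe.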
